A study of Mus musculus with 4 samples.

Results

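Chemokine receptors are the sensors by which leukocytes leave the marrow, enter an inflamed cavity and later leave it again. The 6 receptor genes described here, *Ccr1*, *Ccr2*, *Ccr7*, *Ccrl2*, *Cx3cr1* and *Cxcr4*, were chosen by name from the 15575 genes that the table of this experiment lists, as receptors carried by cells that are recruited to inflamed tissue. All 6 were listed and all 6 had enough reads to be tested. The experiment compared male C57BL/6 mice of 8–12 weeks given unmodified bovine serum albumin (BSA) with mice given AGEs, the same protein after incubation with dehydroascorbic acid. All mice also received thioglycollate (TG), an irritant, in the peritoneal cavity. The intravenous dosing, 10 mg/kg/day, began 24 h earlier, and RNA was taken 72 h after TG from the peritoneal cells that adhered to the dish. Each group had 2 libraries, called biological duplicates by the study, with no statement on whether mice were pooled for a library. Because adherent exudate cells were sequenced in bulk, fewer cells of a type and less RNA per cell cannot be told apart.

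Most chemokine receptors span the membrane as a bundle of helices, couple to inhibitory G proteins, and through calcium release and kinases steer the actin cytoskeleton towards the source of the ligand. *Ccr2* is needed for Ly6C-high monocytes to leave the marrow and reach the inflamed peritoneum. *Ccr1* binds several inflammatory CC chemokines, *Cx3cr1* binds fractalkine and marks patrolling monocytes and many tissue macrophages, and *Cxcr4* binds Cxcl12, which retains leukocytes in the marrow. *Ccr7* guides mature dendritic cells and lymphocytes to lymph nodes. *Ccrl2* is an atypical receptor that binds chemerin and presents it to neighbouring cells without known signalling of its own. The following 30-base stretches of GRCm38 coding sequence (GENCODE M21 transcripts, 5′ to 3′) surround the end of the third membrane helix, and the capitals mark the 3 codons at the position of the Asp-Arg-Tyr motif, the contact of this receptor family with its G protein.
Ccr1: ctgttgacgattGACAGATACctggccatt
Ccr7: tgcatcagcattGACCGCTACgtagccatc
Ccrl2: ctcctccttgtgCAAGGATACagggtgttt
Cx3cr1: gtcatcagcatcGACCGGTACcttgccatc
Cxcr4: ttcatcagcctgGACCGGTACctcgctatt
In *Ccr1*, *Ccr7*, *Cx3cr1* and *Cxcr4* the marked codons spell Asp-Arg-Tyr, and in *Ccrl2* they do not. They also spell it in *Ackr3*, another atypical receptor, so the motif does not separate the atypical receptors from the others.

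The total counts were 17773088 to 24472926 per library, and edgeR's filter on low counts kept 14181 genes. CPM below are depth-scaled counts (edgeR, TMM normalization). A gene passed the threshold of the study with a change over 1.5-fold at an unadjusted p under 0.05, and 1.77% of the genes tested did so, 0.825% with AGEs higher and 0.945% with AGEs lower. After Benjamini-Hochberg adjustment 0 genes remained under 0.05 by edgeR, 5 by DESeq2 and 0 by limma-voom, whereas 5.64% had an unadjusted edgeR p under 0.05. An exact two-sided permutation of 2 libraries against 2 cannot reach a p below 0.333, so the p-values given here come from edgeR's fit to all genes, which pools the spread across them. The library BSA 1 stood apart from the others on the first principal component, which held 38.7% of the variance, at -34.6 against 5.08 to 16.9. Over 8711 genes, GC-rich transcripts tended to have the higher log2 fold changes (Spearman's rho 0.465, across genes, which are not independent replicates).

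The 6 receptors fell into an abundant and a scarce set. On the length-corrected scale of the deposited TPM, *Cxcr4* was the highest with 201 and 181 in BSA 1 and BSA 2 and 151 and 191 in AGEs 1 and AGEs 2. *Ccr2* followed with 138, 97.5, 109 and 114 TPM in BSA 1, BSA 2, AGEs 1 and AGEs 2, and *Ccr1* with 110, 66.8, 78.4 and 85.0 TPM in the same order. The ranges of *Ccr2* and *Ccr1* over the 4 libraries overlapped, although *Ccr2* was the higher of these neighbours in each of the 4 libraries, and the range of *Cxcr4* lay above both. *Ccrl2* had 38.1, 30.6, 31.9 and 35.1 TPM, below every value of *Ccr1*. *Ccr7* and *Cx3cr1* came last, with 2.06 to 6.39 TPM and 2.41 to 4.14 TPM. Their ranges overlapped, and they were the only 2 of the 6 whose order depended on the group. Ranked by the mean TPM of the BSA libraries, *Cxcr4* stood at percentile 97.7 of the genes listed, *Ccr2* at 96.1 and *Ccr1* at 94.5, while *Ccr7* stood at 43.7 and *Cx3cr1* at 33.8. The deposited FPKM gave the same order of the 6. The small RNAs *Rn7s1* and *Rn7s2* took 38.0% to 46.2% of the TPM of a library and the TPM of every other gene moves with them, so the comparison of the groups below uses counts.

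**Figure D1:**
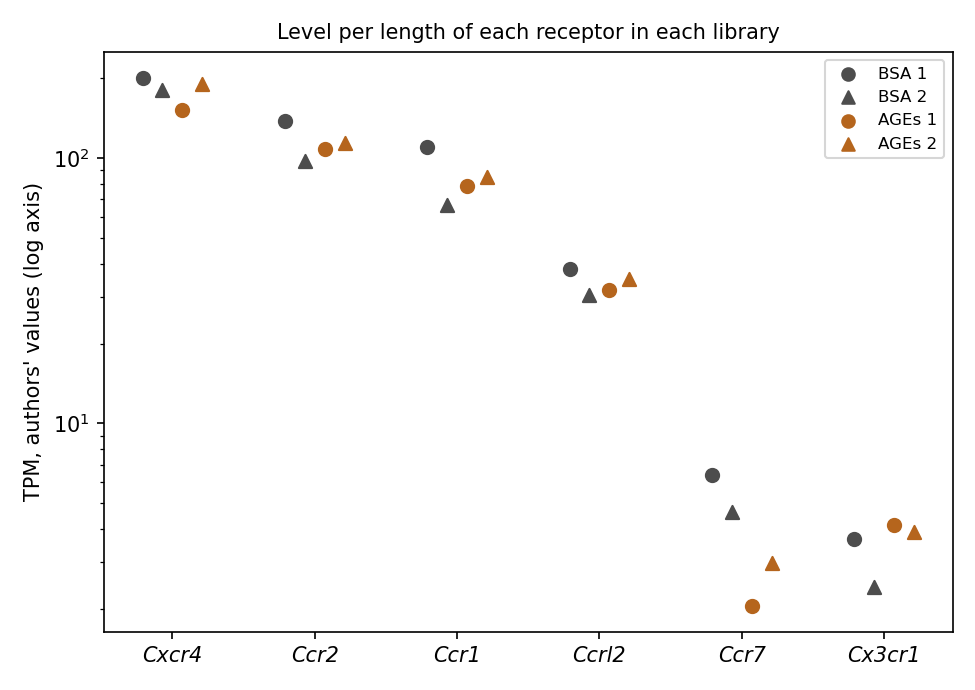
TPM of each receptor (log axis, the authors' values) in the 4 libraries, with BSA in grey and AGEs in brown, circles for replicate 1 and triangles for replicate 2. *Cxcr4*, *Ccr2* and *Ccr1* lie at 66.8 TPM or more in every library and *Ccr7* and *Cx3cr1* at 6.39 TPM or less.

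Of the 6 receptors, *Ccr7* passed the threshold, with AGEs lower, and 5 did not pass, against 0.945% of all genes tested that passed in that direction. Their median log2 fold change (AGEs over BSA) was 0.01, beside -0.0026 over all genes tested, and 4 of the 6 values were positive. The groups did not overlap in CPM for *Ccr7* and *Cx3cr1*, a separation that 35.3% of all genes tested showed. The 6 were chosen with earlier results of these data known, and the study had itself reported *Ccr7* as lower with AGEs. These counts are therefore a description of the 6.

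*Ccr7* (Entrez gene 12775, chromosome 11 from 99144199 to 99155077 of GRCm38) was read 141 and 142 times with BSA and 66 and 101 times with AGEs. Scaled for depth, these were 7.79 and 6.44 CPM with BSA and 2.88 and 4.16 CPM with AGEs. Both AGEs libraries lay below both BSA libraries. *Ccr7* fell by 1.01 on the log2 scale (SE 0.29, 95% interval -1.63 to -0.39), a 2.01-fold lower level, with an unadjusted p of 0.00368 and an adjusted p of 0.785 by edgeR. The size of this change was at percentile 98.1 of all genes tested. Its log2 fold change ran from -1.30 to -0.77 over the alternatives tried, with DESeq2 giving -1.01 at an unadjusted p of 0.00355 and the correction for GC content -1.06. *Ccr7* passed the threshold without any 1 of the 4 libraries, with the smallest change, -0.77, without AGEs 1 (an unadjusted p of 0.0456) and -0.87 without BSA 1 (an unadjusted p of 0.0274).

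*Cx3cr1* (Entrez gene 13051, chromosome 9 from 120048683 to 120068296) was read 154 and 141 times with BSA and 249 times in each of the AGEs libraries. The CPM were 8.51 and 6.39 with BSA and 10.9 and 10.3 with AGEs. The AGEs libraries were the higher ones and lay close together, and the 2 BSA libraries were further apart. The log2 fold change was 0.51 (SE 0.22, 95% interval 0.029 to 0.99), which is 1.42-fold and under the fold limit, at an unadjusted p of 0.0394 and an adjusted p of 0.879 by edgeR. *Cx3cr1* therefore did not pass, and DESeq2 gave an unadjusted p of 0.0584 for it. Which BSA library was kept decided its size. Without BSA 1 the log2 fold change was 0.72 and passed the threshold with an unadjusted p of 0.0127, and without BSA 2 it was 0.32 with an unadjusted p of 0.205.

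The ratio of the TPM of *Ccr2* to that of *Cx3cr1*, the receptors that mark classical and patrolling monocytes in mouse blood, was 37.6 and 40.4 with BSA and 26.2 and 29.2 with AGEs. The log2 fold change of *Ccr2* was 0.02, so this ratio mainly restates *Cx3cr1*, which did not pass. In these adherent cells it does not measure monocyte types. The ratio of *Cx3cr1* to *Ccr7*, a pair chosen after their values were seen, was 0.577 and 0.521 with BSA and 2.01 and 1.30 with AGEs. In the BSA libraries *Ccr7* was the higher of these scarce receptors per length, and in the AGEs libraries *Cx3cr1* was.

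**Figure D2:**
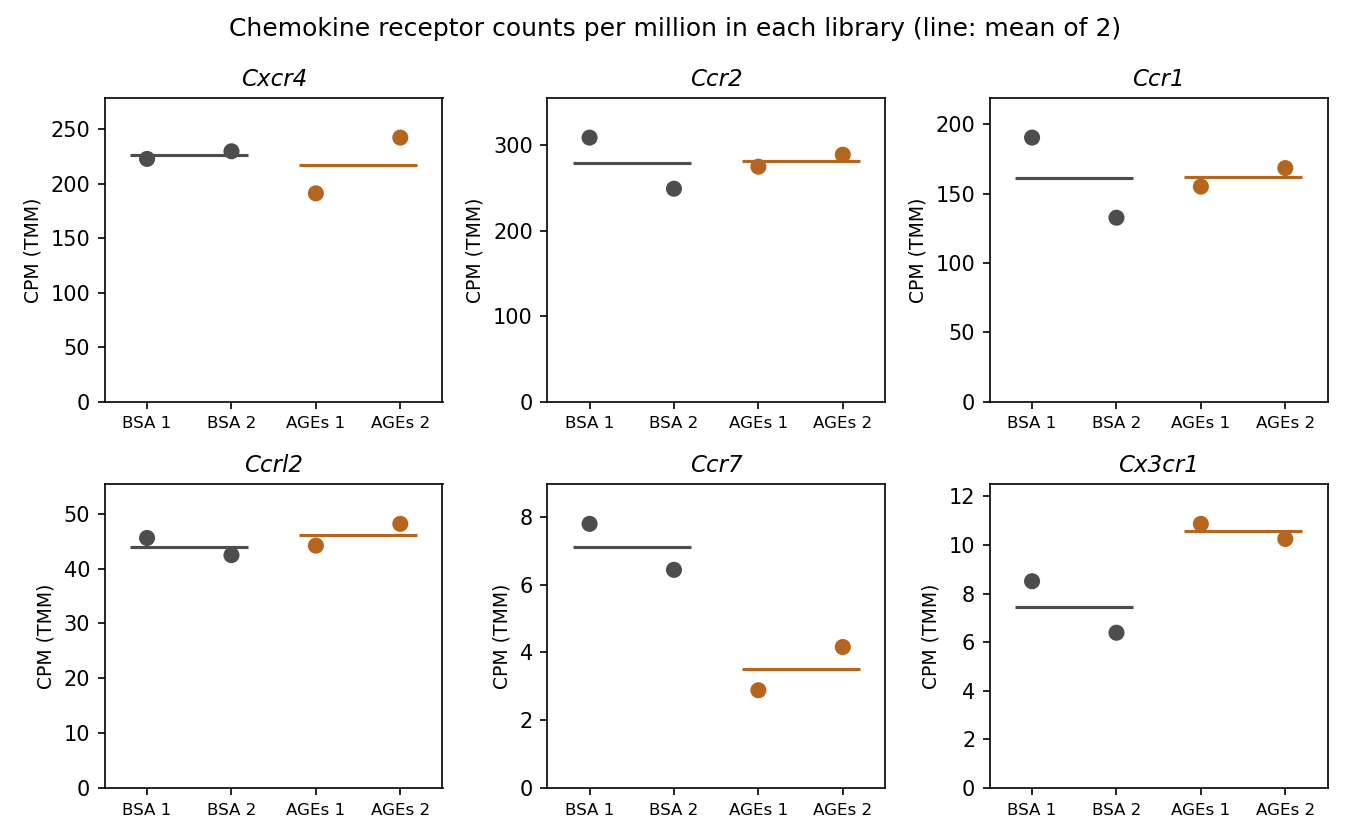
CPM of each receptor in each library (y axes start at 0, grey points BSA, brown points AGEs, lines the mean of the 2 libraries of a group). The AGEs points lie below both BSA points for *Ccr7* and above both for *Cx3cr1*, and the groups overlap in the other 4 panels.

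The 4 abundant receptors did not pass. *Ccr2* (Entrez gene 12772, chromosome 9 from 124101918 to 124109140) had 309 and 249 CPM with BSA and 275 and 289 CPM with AGEs, from 5491 to 7011 counts. Both AGEs values lay between the BSA values, and the log2 fold change was 0.02 (SE 0.10, 95% interval -0.20 to 0.24, adjusted p = 0.993). *Ccr1* (Entrez gene 12768, chromosome 9 from 123962126 to 123968692) had 191 and 133 CPM with BSA and 155 and 169 CPM with AGEs. Again the AGEs values lay inside the BSA range, with a log2 fold change of 0.0034 (SE 0.16, 95% interval -0.36 to 0.36, adjusted p = 0.998). *Ccr1* was the receptor whose direction hung most on the BSA library it was compared with, at 0.28 without BSA 1 and -0.23 without BSA 2, with unadjusted p-values of 0.0143 and 0.0339 and neither over 1.5-fold.

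*Cxcr4* (Entrez gene 12767, chromosome 1 from 128588199 to 128592299) had 223 and 230 CPM with BSA and 191 and 242 CPM with AGEs. Here the BSA libraries were alike and the AGEs libraries lay on either side of them, with a log2 fold change of -0.06 (SE 0.11, 95% interval -0.29 to 0.17, adjusted p = 0.957). *Ccrl2* (Entrez gene 54199, chromosome 9 from 111054834 to 111057518) had 45.6 and 42.5 CPM with BSA and 44.2 and 48.2 CPM with AGEs, and its groups overlapped. Its log2 fold change was 0.07 (SE 0.11, 95% interval -0.17 to 0.31, adjusted p = 0.952). The intervals of these 4 receptors all lay inside the 1.5-fold limits in either direction, whereas those of *Ccr7* and *Cx3cr1* reached past one of them.

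**Figure D3:**
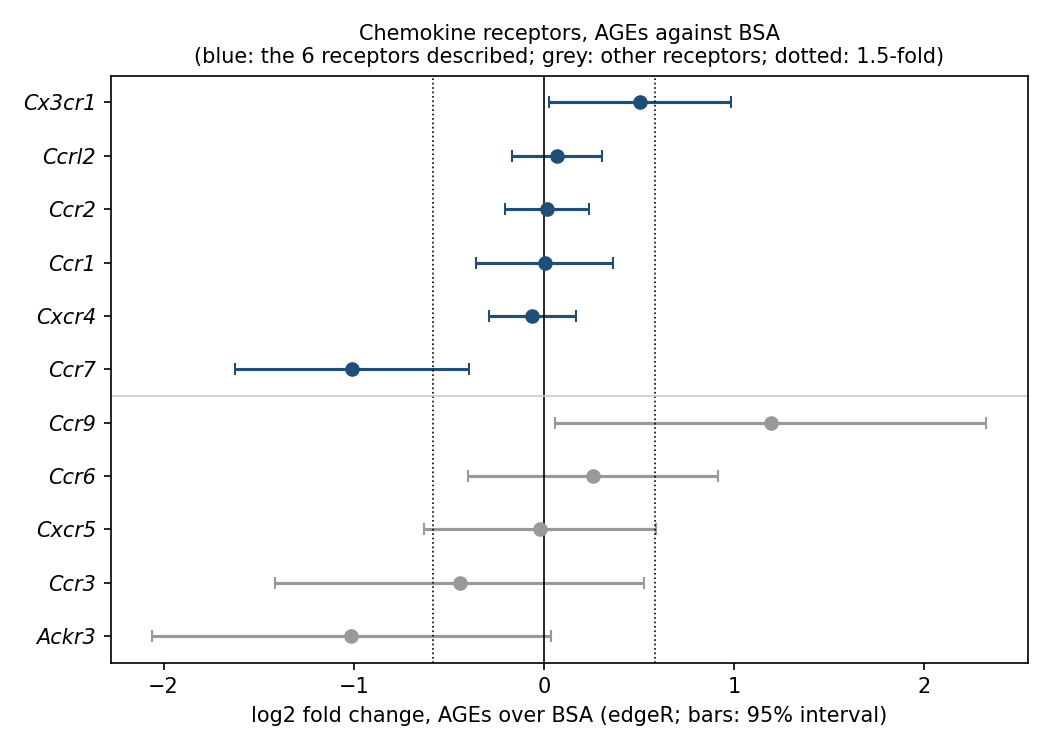
Log2 fold change (AGEs over BSA, edgeR) with 95% interval for the 6 receptors (blue) and other chemokine receptors tested (grey), with dotted lines at 1.5-fold. Of the blue intervals, those of *Ccr7* (-1.63 to -0.39) and *Cx3cr1* (0.029 to 0.99) do not include 0.

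**Figure D4:**
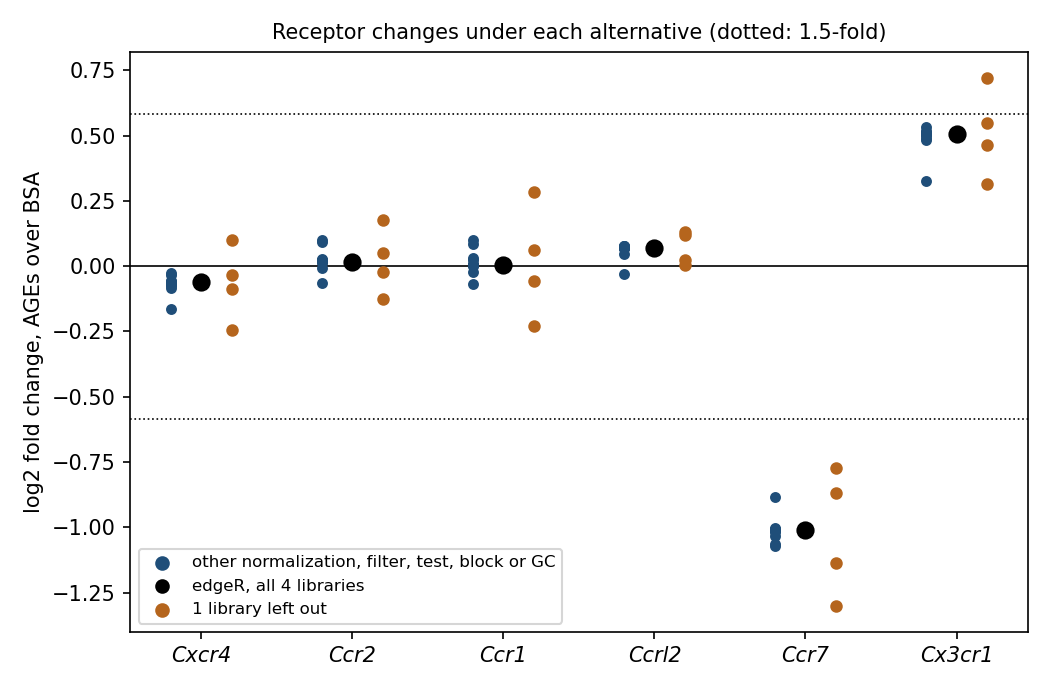
Log2 fold change of each receptor with all 4 libraries in edgeR (black), under other normalizations, filters, tests, the replicate block or the GC correction (blue), and with 1 library left out (brown). *Ccr7* stays between -1.30 and -0.77, *Cx3cr1* between 0.32 and 0.72, and the other 4 receptors lie on both sides of 0.

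Few chemokine receptors outside the 6 were listed in the table. Of 18 such genes, 7 were listed and 6 were tested. *Ccr9*, a receptor of gut-homing lymphocytes and precursors, passed with AGEs higher, and the median log2 fold change of the 6 was 0.06. *Ccr9* had 10 and 16 counts with BSA and 26 and 44 with AGEs, with a log2 fold change of 1.19 (SE 0.52, adjusted p = 0.879). This call was lost with DESeq2, without AGEs 2 (0.82), without BSA 1 (1.02) and without BSA 2 (1.41), where the unadjusted p was over 0.05. Also, 18.9% of the 100-base windows of the *Ccr9* transcripts, none of them coding, also occur in transcripts of the annotated genes AC165425.1 and *Gm17200*. *Ackr3*, the scavenging receptor that shares Cxcl12 with *Cxcr4*, had 28 and 36 counts with BSA and 20 and 17 with AGEs (log2 fold change -1.01, SE 0.48, adjusted p = 0.884) and did not pass.

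Of the 100-base windows of the *Ccr2* transcripts, 0.790% are not unique among annotated transcripts, and 0 windows of the other 5 receptors occur in another gene. The lymphocyte receptors *Ccr6* (log2 fold change 0.26) and *Cxcr5* (-0.02) and the eosinophil receptor *Ccr3* (-0.44) did not pass, and *Cxcr2*, a neutrophil receptor, had 3 to 10 counts and was not tested.

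Of 13 ligands of the 6 receptors, 6 were listed and tested and 0 passed by edgeR in either direction, with 1 at an unadjusted p under 0.05 and 0 past the threshold by DESeq2. Their median log2 fold change was 0.09. The most abundant were the *Ccr1* ligands *Ccl6*, at 944 and 825 CPM with BSA and 950 and 948 CPM with AGEs, and *Ccl9*, at 528 and 483 CPM with BSA and 599 and 544 CPM with AGEs. Their log2 fold changes were 0.10 (SE 0.09, adjusted p = 0.928) and 0.18 (SE 0.09, adjusted p = 0.893). The *Ccr2* ligands were scarcer and more scattered. *Ccl2* was read 218 and 107 times with BSA and 232 and 186 times with AGEs (log2 fold change 0.08, SE 0.39), and *Ccl7*, read 52 to 110 times, had a log2 fold change of -0.58 (SE 0.37). *Ccl3*, a further ligand of *Ccr1*, was at -0.29 (SE 0.20). *Mif*, which binds *Cxcr4* and Cd74, had 15.0 and 17.1 CPM with BSA and 24.3 and 18.3 CPM with AGEs (log2 fold change 0.40, SE 0.18, adjusted p = 0.879), under 1.5-fold, and a log2 fold change of 0.18 after the GC correction. With 1 library left out, *Ccl2* passed without BSA 1 (0.87), *Ccl7* without AGEs 1 (-1.27) and *Mif* without AGEs 2 (0.59). The genes of the *Ccr7* ligands Ccl19 and Ccl21a, of fractalkine, of Cxcl12 and of chemerin were among the ligands not listed, so they could not be tested.

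The machinery downstream of the receptors was followed by 37 genes of receptor signalling (G protein subunits, arrestins, receptor kinases, phosphoinositide 3-kinase and Rac regulators). All 37 were tested and 0 passed by edgeR or DESeq2, 1 having an unadjusted edgeR p under 0.05. Their log2 fold changes ran from -0.23 to 0.39, with a median of 0.03. Because 1.77% of all genes tested passed, 0 of 37 does not set this list apart. The CPM of the groups did not overlap for 9 genes with AGEs higher and 5 with AGEs lower. Among all genes tested, 35.3% were separated in this way. Some intervals reached past 1.5-fold, such as those of *Rgs14* (-0.011 to 0.79) and *Rgs16* (-0.87 to 0.96). A small difference is therefore not shown for every gene. The most abundant of the 37 were *Dock2*, the Rac activator of leukocyte migration, at 0.13 (SE 0.08), and *Cdc42*, a polarity GTPase, at -0.09 (SE 0.08). Of 26 other chemoattractant receptors, 23 were tested and 0 passed by edgeR or DESeq2, 1 having an unadjusted edgeR p under 0.05, with a median of 0.10. Without BSA 2, the oxysterol receptor *Gpr183* (-0.72) and the sphingosine 1-phosphate receptor *S1pr4* (2.13) passed. With all 4 libraries *Gpr183* was at -0.38 (SE 0.28) and *S1pr4* at 0.63 (SE 0.55). *S1pr4* had 16 counts in BSA 1 and 89 in BSA 2, so its larger value rests on BSA 1. *Cd74*, the invariant chain and surface receptor of Mif, was at 0.16 (SE 0.09), and *C3ar1*, the receptor of complement fragment C3a, at -0.01 (SE 0.09). *Cmklr1*, the signalling chemerin receptor to which *Ccrl2* presents its ligand, had 69.1 and 65.4 CPM with BSA and 68.2 and 82.8 CPM with AGEs (log2 fold change 0.17, SE 0.11, adjusted p = 0.902).

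The cells that could carry these receptors were followed by marker lists. Macrophage genes dominated, with a summed level of 13891 to 17628 CPM over 8 genes, led by *Lyz2* (lysozyme) and *Itgam* (CD11b), and 0 of 8 passed. *Ly6c2*, the marker that defines Ly6C-high monocytes, had 3 to 9 counts and was too low to test. Of the other monocyte markers 6 were tested and 0 passed, led by *F13a1* (-0.19, SE 0.25) and *Chil3* (0.49, SE 0.16). The list summed to 346 to 357 CPM with BSA and 260 to 386 CPM with AGEs. *F13a1* alone had 286 and 271 CPM with BSA and 188 and 300 CPM with AGEs, so the sum mainly restates this gene. Markers of resident large peritoneal macrophages, led by *F5* and *Prg4*, gave 0 of 9 passing and 159 to 270 CPM with BSA and 198 to 249 CPM with AGEs. DESeq2 likewise passed 0 genes of these 3 lists, and 2 monocyte markers, *Chil3* and *Vcan* (-0.36, SE 0.15), had an unadjusted edgeR p under 0.05. With 1 library left out, 0 to 2 monocyte genes and 0 to 2 resident macrophage genes passed, among them *Chil3* without BSA 2 (0.73) or AGEs 1 (0.65) and the resident macrophage gene *Prg4* without BSA 1 (0.73). The part of these cells in the results for *Ccr2* and *Cx3cr1* was not tested.

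*Ccr7* was accompanied by some dendritic cell genes and not by others. Of 6 dendritic cell markers tested, 3 passed with AGEs lower, a call that 0.945% of all genes tested received. The list was chosen with earlier results of these data known, so this count is a description. *Flt3*, the growth factor receptor of dendritic cells, had 3.10 and 2.67 CPM with BSA and 0.699 and 1.57 CPM with AGEs (log2 fold change -1.34, SE 0.46, adjusted p = 0.848). *Cd209a*, a lectin of monocyte-derived and conventional dendritic cells, was at -1.24 (SE 0.55), and *Kmo*, an enzyme of tryptophan breakdown, at -1.39 (SE 0.56), from 8 to 30 counts per library. *Zbtb46*, the transcription factor that defines conventional dendritic cells, had 3.48 and 3.04 CPM with BSA and 2.80 and 3.87 CPM with AGEs, and its log2 fold change was 0.04 (SE 0.34). *H2-DMb2*, an antigen-loading gene, was at 0.41 (SE 0.22) and *Batf3* at 0.75 (SE 0.48). With DESeq2, *Flt3* alone of these 6 passed. The call of *Flt3* was lost without AGEs 1 (-0.88), that of *Cd209a* without BSA 1 (-0.96), AGEs 1 (-1.22) or AGEs 2 (-1.26), and that of *Kmo* without BSA 2 (-1.22) or AGEs 2 (-1.01). Conversely, *Batf3* passed without BSA 2 (1.32) and *H2-DMb2* without AGEs 1 (0.62), both with AGEs higher.

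Of the genes that mature dendritic cells express along with *Ccr7*, 6 were tested and moved apart. *Ccl22*, a chemokine for T cells, had 2.93 and 4.21 CPM with BSA and 0.917 and 1.52 CPM with AGEs and fell by 1.55 on the log2 scale (SE 0.42, adjusted p = 0.785). *Fscn1*, an actin bundler of dendritic processes, had 0.940 and 0.635 CPM with BSA and 2.05 and 2.02 CPM with AGEs and rose by 1.38 (SE 0.48, adjusted p = 0.848), a call that was lost without BSA 2 (1.11). The most abundant, *Cd83* (-0.29, SE 0.11) and *Relb* (-0.03, SE 0.15), did not pass. The list summed to 90.2 to 107 CPM with BSA and 82.0 to 87.4 CPM with AGEs. Most of this was *Cd83* (69.7 and 56.9 CPM with BSA, 52.5 and 51.1 CPM with AGEs) and *Relb* (23.5 to 30.1 CPM). The sum therefore does not measure mature dendritic cells. The dendritic cell list summed to 17.8 to 19.0 CPM with BSA and 16.3 to 21.4 CPM with AGEs, with *H2-DMb2* (8.25 to 13.3 CPM) the largest part. *Ccr7* thus moved with *Flt3* and *Ccl22* while *Zbtb46* overlapped between the groups, and the part of dendritic cells in its fall was not tested.

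**Figure D5:**
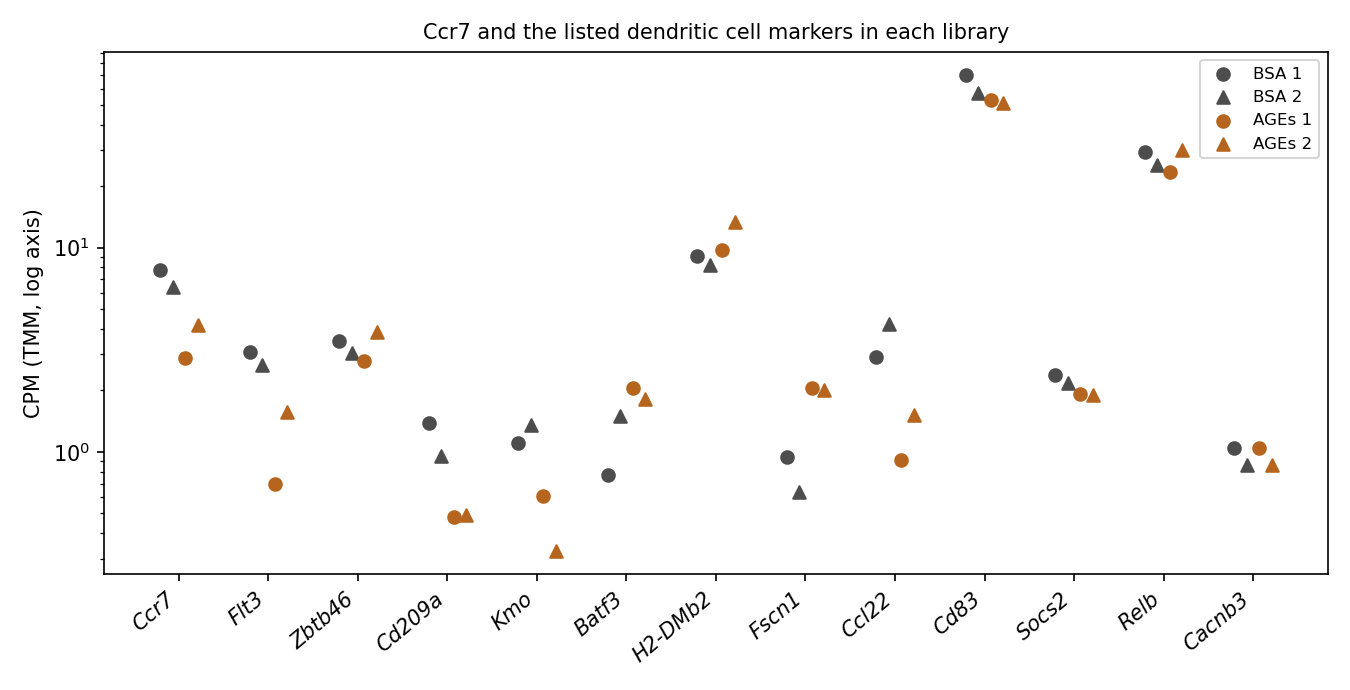
CPM (log axis) of *Ccr7* and the 12 dendritic cell markers tested in each library, BSA grey and AGEs brown, circles replicate 1 and triangles replicate 2. *Ccr7*, *Flt3*, *Cd209a*, *Kmo*, *Ccl22*, *Cd83* and *Socs2* lie lower in both AGEs libraries, *Fscn1*, *Batf3* and *H2-DMb2* lie higher in both, and *Zbtb46*, *Relb* and *Cacnb3* overlap. Among all genes tested, the groups did not overlap for 35.3%.

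Markers of other cells that carry chemokine receptors were low, with some exceptions. B cell markers, a further source of *Ccr7* and *Cxcr5*, summed to 90.6 and 115 CPM with BSA and 108 and 136 CPM with AGEs, among them *Blk* (0.18, SE 0.20), and 0 of 8 passed. Of T and NK cell genes 2 were tested and 0 passed, *Il7r* at -0.13 (SE 0.08) and *Lck* at -1.35 (SE 0.67), and *Il7r* alone made up 316 to 364 CPM. Only 3 of the 10 T and NK cell markers were listed, and *Lck* had 7 to 46 counts. The level of *Il7r* therefore does not measure T or NK cells here. Neutrophil (*Csf3r*, *Mmp8*) and eosinophil (*Siglecf*, *Il5ra*) lists gave 0 of 3 passing each, and *Csf3r* is also expressed by monocytes and macrophages. Of 5 mast cell and basophil genes, *Hdc* rose by 1.21 (SE 0.49) and *Kit* was at 0.19 (SE 0.47), and of 4 mesothelial genes *Krt8* fell by 1.16 (SE 0.51) and *Lrrn4* was at 0.22 (SE 0.45). The call of *Hdc* was lost without BSA 1 (0.82) or AGEs 1 (0.72), and that of *Krt8* with DESeq2 (-1.17) and without BSA 1 (-0.68) or AGEs 2 (-0.86). DESeq2 passed 0 B, T and NK cell, neutrophil and eosinophil genes, of which 1, a B cell gene, had an unadjusted edgeR p under 0.05. That B cell gene passed, with AGEs higher, under the GC correction and without AGEs 2. With 1 library left out, *Lck* passed without BSA 1 (-1.96) or AGEs 1 (-2.22), and *Siglecf* (1.28) and the mast cell protease *Cpa3* (2.73) passed without BSA 2. With all 4 libraries *Siglecf* was at 0.11 (SE 0.48) and *Cpa3* at -0.27 (SE 0.83), the opposite sign. In BSA 1 and BSA 2 *Siglecf* had 20 and 84 counts and *Cpa3* 2 and 37, so the larger values rest on BSA 1. The part of these cells was not tested.

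The genes nearest in pattern to the 2 receptors whose groups did not overlap were found by the distance between log2 CPM profiles, centred on the mean of each gene, over the 4 libraries and among 11693 genes. Nearest to *Ccr7* were *Rragb*, a GTPase of amino acid sensing (distance 0.0567), *Pde5a*, a phosphodiesterase for cyclic GMP (0.180), and *Nuf2*, a kinetochore protein (0.200). Nearest to *Cx3cr1* were *Cyp2r1*, a vitamin D 25-hydroxylase (0.0597), *Vsig10* (0.0824) and *Slc39a14*, a zinc and iron importer (0.0864). Of these 6 genes, *Rragb*, *Nuf2*, *Cyp2r1* and *Vsig10* lay at or below 4.24 CPM in every library, and with 4 libraries such a likeness is a description.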

How the data were processed

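The experiment holds 4 total RNA libraries of adherent peritoneal cells, 2 per group, grouped by their sample titles. Per the study's methods, ribosomal RNA was removed before stranded library preparation, HISAT2 2.1.0 aligned the reads to mm10 (GRCm38), and the authors computed TPM and FPKM with StringTie 2.1.3b. How the deposited read counts per gene were made, whether counting used the strand, and the version of DESeq2 are not given in the sources used here. Of the deposited values, counts were tested, the authors' TPM gave levels per length and 1 alternative test, and the authors' FPKM a check of the order of levels. Not used were 4 per-sample columns of log2 normalized values and 8 columns of the authors' group means and comparison (fold change, mean normalized count, standard error, Wald statistic, p-values). No listed gene has a count under 1, and 15534 of 15575 gene IDs matched RefSeq GRCm38.p6, the source of gene coordinates.

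The main test was that of edgeR 4.0.16, run in R 4.3.3 (TMM, filterByExpr, robust glmQLFit, glmQLFTest, no block), with Benjamini-Hochberg adjustment over all 14181 genes kept. The biological coefficient of variation was 12.9%. Log2 fold changes are AGEs over BSA. Standard errors are the log2 fold change over the root of F, and intervals are 95%. The p-values of edgeR rest on the spread between these libraries as the fit pools it across genes. Whether mice were pooled for a library is not stated, so this is not known to be the spread between mice. Alternatives were DESeq2 1.42.0, limma-voom (limma 3.58.1), normalization by RLE, by the upper quartile or by library size alone, no filter or a minimum of 50 counts in 2 libraries, limma on log2(TPM + 1), a replicate block, a loess correction for GC content (span 0.5, 13159 genes), the adjusted p, a fold limit of 2, and each library left out. The edgeR, DESeq2 and limma-voom tests were tried on simulated counts that had the same dispersion for every gene and no GC trend. The other steps were not.

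The receptors, gene lists (other receptors, ligands, signalling, chemoattractant receptors, 11 marker lists) and tests were chosen with earlier results of these data known. Named are the 6 receptors, every other listed receptor and ligand that can be given, of each other list the genes past the threshold and the 2 most abundant, and the 3 nearest genes by pattern, leaving out predicted genes and pseudogenes. *Cmklr1*, *Vcan*, *Gpr183*, *S1pr4*, *Cpa3*, *Ly6c2*, *Zbtb46*, *H2-DMb2* and *Batf3* were named for their role or level, in part after their values were seen. Some genes of the lists are counted but not reported here.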

Additional observations from a re-analysis of the deposited data

How the results depend on the processing

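*Ccr7* kept its direction and passed the threshold under every alternative except the adjusted p (log2 fold change -1.01, adjusted p = 0.785), with -1.30 to -0.77 when 1 library was left out. *Cx3cr1* stayed positive under every alternative (0.32 to 0.72 with 1 library left out) and passed only without BSA 1. The other receptors changed sign. With library size normalization *Ccr1* was at -0.021 and *Ccr2* at -0.0074, where the median over all genes tested was -0.024. With limma on log2(TPM + 1) *Ccr1* was at -0.068, *Ccr2* at -0.064 and *Ccrl2* at -0.029, where that median was -0.073. In the main test the median over all genes was -0.0026. With 1 library left out, *Ccr1* ranged from -0.23 to 0.28, *Ccr2* from -0.13 to 0.18, *Cxcr4* from -0.24 to 0.099 and *Ccrl2* from 0.0058 to 0.13. The cause was not tested. The number of all genes past the threshold, 251, was 127 with at least 50 counts, 143 with DESeq2, 136 with a fold limit of 2, 0 by the adjusted p and 275 to 523 with 1 library left out, the highest without BSA 2. Limma on TPM gave 57 genes higher and 144 lower in AGEs, against 117 and 134. With 1 library left out, 0 to 1 other chemokine receptors, 0 to 1 ligands and 0 to 2 chemoattractant receptors passed, and with DESeq2 0 other chemokine receptors did.

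The labels give the groups the same replicate numbers, but the deviations of same-numbered libraries correlated at only 0.028, and 2 pairs cannot establish a pairing. With the replicate block *Ccr7* was at -1.02, *Cx3cr1* at 0.52 and 264 genes passed. Of the genes named, *Ccl7* passed with the block (-0.66) and *Cd209a* no longer did (-1.23). With the block and the GC correction 208 genes passed. Counts of 66 to 142 limit *Ccr7*, and in fits without 1 library a group of 1 library takes its spread from the other group.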
